A study of Mus musculus with 18 samples.

Results

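The endothelin genes on these arrays comprised the receptor gene Ednrb, the ligand genes Edn1 and Edn3, and Ece1, which encodes an enzyme that releases active endothelin from its precursor. They were chosen by gene symbol in the platform annotation, and 4 of the 5 genes sought were found among the 19057 genes named on the array, with 8 of its 45281 probes. Ednrb had 3 probes, Edn3 and Ece1 had 2 each and Edn1 had 1, while no probe was annotated to Ednra, which is not analysed here. The study profiled granule neuron progenitors (GNPs), the cells from which Sonic hedgehog medulloblastoma (MB) arises, on 1-colour Illumina arrays at postnatal day 6, and compared mice that lack Norrin (the product of Ndp, a secreted ligand of Fzd4 on endothelial cells) with mice that keep it, with or without loss of 1 copy of the hedgehog receptor gene Ptch. There were 4 GNP arrays of each genotype (wild-type, Ptch+/-, NdpKO, and the compound NdpKO;Ptch+/-), stated to be separate animals, and 1 array each for a Ptch+/- and an NdpKO;Ptch+/- MB. All 18 were labelled day 6, although the series' design text describes the tumors as taken from symptomatic mice. Wild-type and Ptch+/- animals were labelled C57Bl/6, NdpKO animals were labelled a mixed strain, and of the 4 NdpKO;Ptch+/- GNP arrays only replicate 2 had a strain label, also mixed. Ndp is X-linked and was replaced by a lacZ cassette in the whole animal, so the mutants without Norrin were males while both sexes served as controls, and genotype cannot be told apart from strain and sex here. GNPs were enriched on a percoll gradient with pre-plating, so the preparations were not pure.

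Endothelins are short vasoactive peptides that are cut from larger precursors and bind a pair of G protein-coupled receptors, type A (Ednra) and type B (Ednrb). Endothelin 1 is made mainly by endothelial cells, and endothelin 3 is the ligand through which Ednrb guides neural crest cells to the skin and gut. In the brain Ednrb is best known from astroglia, where endothelin alters proliferation and reactivity, and from endothelium, where it prompts release of nitric oxide.

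The 250 bases before the RefSeq transcription start (GRCm38.p6) are shown for the receptor and ligand genes whose levels differed most between arrays, since their regulatory regions are the sequence that a reader would search first. Ednrb lies on the minus strand (chr14:103843702-103843951, 56.8% GC) and Edn1 on the plus strand (chr13:42301226-42301475, 50.4% GC).
Ednrb: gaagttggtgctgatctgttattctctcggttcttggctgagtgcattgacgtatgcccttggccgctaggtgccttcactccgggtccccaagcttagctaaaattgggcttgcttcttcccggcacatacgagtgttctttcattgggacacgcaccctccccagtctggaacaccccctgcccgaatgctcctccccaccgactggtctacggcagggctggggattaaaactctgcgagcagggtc
Edn1: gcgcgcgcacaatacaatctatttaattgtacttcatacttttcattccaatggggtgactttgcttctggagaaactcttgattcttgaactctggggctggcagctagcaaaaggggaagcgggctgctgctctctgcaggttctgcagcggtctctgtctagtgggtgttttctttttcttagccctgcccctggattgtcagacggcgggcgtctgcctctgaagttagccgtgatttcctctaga
Neither window held, on either strand, the letters of 5 motifs that were searched. These were GLI (TGGGTGGTC, in 0.225% of 32851 upstream windows), TCF/LEF (CTTTGAT, 3.21%), SOX (CTTTGT, 16.5%), AP-1 (TGANTCA, 6.75%) and the hypoxia response core (ACGTG, 16.6%), of which SOX and TCF/LEF share their first letters. The windows of Ednra and Edn3 held none of them either, and 1 of 4 windows of Ece1 held the hypoxia response core, read on both strands at overlapping positions. A missing match says only that these letters are not in this window.

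Levels are log2 intensities, on which probes without signal sat near 4.1 (the median of all probes was 4.13), and a level under 5 is treated below as near background. The preparations held the granule lineage marker Zic1 at 12.70 to 13.08 in GNPs, whereas Atoh1 was at background on every array. They also held astroglial and endothelial transcripts: Slc1a3, the astroglial glutamate transporter, was at 11.73 to 12.95 and Cldn5, an endothelial tight junction gene, at 10.56 to 12.45. Ptch1 was lower in carriers of the Ptch mutation (7.63 to 8.23) than in the other GNPs (8.56 to 8.97), while Ndp was at background everywhere, which leaves the knockout unchecked. The first principal component held 43.6% of the variance of the 1500 most variable probes. On it all wild-type arrays and NdpKO;Ptch+/- replicates 2 to 4 were negative. All Ptch+/- arrays and NdpKO replicates 1 to 3 were positive. Replicate 4 of NdpKO (negative) and replicate 1 of NdpKO;Ptch+/- (positive) stood apart from their groups. Many probes thus parted wild-type and most compound arrays from most single-mutant arrays, and whether Ednrb differed beyond that was not tested. NdpKO;Ptch+/- replicate 2 was titled as that genotype but carried source and genotype labels of the Ndp knockout. It was grouped by its title. In bulk samples like these, fewer cells of a type and less RNA per cell cannot be told apart.

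The receptor gene Ednrb was measured well above background by its brightest probe (ILMN_2589640), on all 18 arrays. The 4 wild-type arrays read 11.87, 11.82, 11.54 and 11.45. The Ptch+/- arrays read 10.65, 10.92, 11.03 and 10.92, and the NdpKO arrays 10.58, 10.94, 10.86 and 11.47. The NdpKO;Ptch+/- arrays read 11.18, 11.33, 11.27 and 11.35. Every Ptch+/- array was therefore below every array of the wild-type and compound groups, NdpKO replicate 4 alone reached the wild-type range, and the compound mutants lay between wild-type and Ptch+/- with the narrowest spread.

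At the dimmest Ednrb probe (ILMN_2717765) wild-type was again highest and the compound mutants next, while the single mutants lay close together and in the opposite order (means of 5.02 in Ptch+/- and 4.99 in NdpKO, against 10.88 and 10.96 at the brightest probe). Wild-type arrays read 7.30, 6.56, 6.22 and 6.39, and NdpKO;Ptch+/- arrays read 5.68, 6.21, 5.91 and 6.23. Ptch+/- arrays read 4.61, 4.57, 5.61 and 5.30, and NdpKO arrays 4.35, 5.30, 4.52 and 5.80, so that both single-mutant groups reached the background range. The middle probe (ILMN_2917471) read 8.56, 8.64, 8.73 and 7.79 in wild-type, 7.76, 7.56, 7.73 and 7.67 in Ptch+/-, 6.63, 7.98, 7.59 and 7.69 in NdpKO, and 7.84, 8.11, 7.97 and 8.47 in compound mutants. On this probe wild-type replicate 4 lay just above the highest Ptch+/- array. It lay below NdpKO replicate 2, so the wild-type and NdpKO groups overlapped. Across the 16 GNP arrays the probes varied together, with Pearson's r of 0.939 between the brightest and the dimmest and 0.793 and 0.788 for the pairs with the middle one; each pair shares its arrays and its gene, so these are descriptions.

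**Figure D1:**
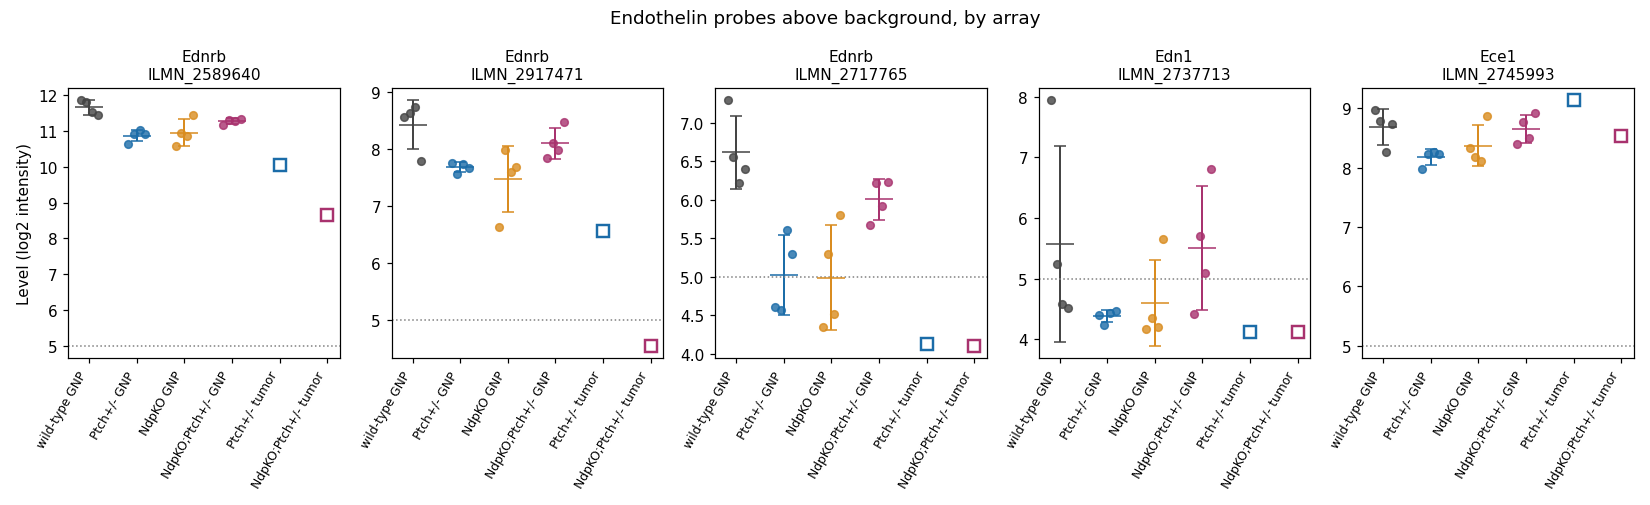
Levels (log2 intensity, vertical axis, a separate range in each panel) of the 5 endothelin probes that rose above background, in the 4 GNP genotypes (filled circles are arrays, bars are mean ± SD, n = 4) and in the 2 tumors (open squares, 1 array each); the dotted line marks the level 5. All 3 Ednrb panels are highest in wild-type GNPs and lowest in the tumors, and Edn1 is near the background line on most arrays.

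Ednrb was lower in Ptch+/- than in wild-type GNPs at its brightest probe, by -0.79 ± 0.16 on the log2 scale (SE, 4 against 4 arrays; 1.73-fold; limma, Benjamini-Hochberg adjusted p = 0.0362 over all probes). The other probes differed by -1.59 ± 0.35 (adjusted p = 0.0503) and -0.75 ± 0.27 (adjusted p = 0.23), which did not pass. Thus 1 of the 8 endothelin probes was called lower, where 0.499% of all probes were, 4 of 8 had an unadjusted p under 0.05 (13.2% of all probes), and 4 of 8 (the 3 of Ednrb and that of Edn1) had every Ptch+/- array below every wild-type array, where 4.48% of all probes did. These genes were put forward with earlier results of these arrays known, so the counts and adjusted p-values describe this table and are no independent evidence. The call at the brightest probe was fragile: leaving out any of the 8 arrays other than wild-type replicate 4 raised the adjusted p to between 0.0666 and 0.108, while the difference stayed between -0.87 and -0.72. It was also lost with the replicate number as a block (adjusted p = 0.0738) and with NdpKO;Ptch+/- replicate 2 counted as NdpKO (adjusted p = 0.058), through the shared estimate of the spread.

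In NdpKO GNPs the Ednrb differences from wild-type were -0.71 ± 0.16 (adjusted p = 0.0965), -1.63 ± 0.35 (adjusted p = 0.0873) and -0.96 ± 0.27 (adjusted p = 0.18) for the brightest, dimmest and middle probe. None of the 8 endothelin probes was called by limma, where 0.307% of all probes were, and 3 had an unadjusted p under 0.05 (10.9% of all probes), all of Ednrb and all lower. The dimmest probe alone did not overlap between the groups (2.57% of all probes were lower without overlap). The lack of a call at the first 2 probes depended in part on NdpKO replicate 4, which stood apart. Without it their differences were -0.88 (adjusted p = 0.0133) and -1.90 (adjusted p = 0.029), both past the threshold, and that of the middle probe was -1.03 (adjusted p = 0.14). Calls over all 45281 probes also rose in that fit, to 401 from 139 in the main fit. Both single-mutant comparisons use the same wild-type arrays, so their likeness is partly built in. Set directly against each other, NdpKO and Ptch+/- GNPs differed by 0.08 (95% interval -0.26 to 0.43), -0.03 (-0.79 to 0.72) and -0.21 (-0.79 to 0.37); 0 of 8 probes were called by limma or had an unadjusted p under 0.05 (0.0199% and 5.09% of all probes), and the intervals leave room for differences of either sign.

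The compound mutants did not carry the sum of both single-mutant differences. The estimates for Norrin loss, negative on the wild-type background, were positive on the Ptch+/- background, where the differences between NdpKO;Ptch+/- and Ptch+/- GNPs were 0.41 ± 0.16 (adjusted p = 0.49), 0.98 ± 0.35 (adjusted p = 0.43) and 0.42 ± 0.27 (adjusted p = 0.73). None of the 8 probes was called by limma in that comparison (0.0155% of all probes were) and 3 had an unadjusted p under 0.05 (8.67% of all probes), yet 4 of 8, the 3 of Ednrb and 1 of Ece1, had every compound array above every Ptch+/- array, where 2.3% of all probes did. The interaction, the effect of Norrin loss on the Ptch+/- background minus its effect on the wild-type background, was 2.61 ± 0.49 at the dimmest probe (adjusted p = 0.0473), 1.11 ± 0.22 at the brightest (adjusted p = 0.0536) and 1.37 ± 0.38 at the middle one (adjusted p = 0.12). The dimmest probe was the 1 of 8 called higher, where 0.221% of all probes were, and 4 of 8 had an unadjusted p under 0.05 (13.3% of all probes). Its single-mutant levels reached background, so that the size of this interaction is less certain than its sign. The call was kept in 2 of 16 fits that left out 1 array, those without NdpKO replicate 4 (2.88, adjusted p = 0.0135) and without NdpKO;Ptch+/- replicate 1 (2.72, adjusted p = 0.0234), which are the arrays that stood apart. It was lost with the replicate number as a block (adjusted p = 0.0808) and with NdpKO;Ptch+/- replicate 2 counted as NdpKO (2.30, adjusted p = 0.19). Without both arrays that stood apart, a choice made after seeing the data, the interaction was 1.32 at the brightest probe (adjusted p = 0.0018), 2.99 at the dimmest (adjusted p = 0.0046) and 1.03 for Ece1 (adjusted p = 0.0198). Calls rose over the whole array in that fit, to 2577 of 45281 probes from 224 in the main fit. They were 1201 without NdpKO replicate 4 alone and 1221 without NdpKO;Ptch+/- replicate 1 alone.

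Against the other groups the compound mutants were intermediate. Ednrb was -0.39 ± 0.16, -0.61 ± 0.35 and -0.33 ± 0.27 relative to wild-type (adjusted p = 0.65, 0.81 and 0.91), and 0.32 ± 0.16, 1.02 ± 0.35 and 0.63 ± 0.27 relative to NdpKO (adjusted p = 0.87 for each). No endothelin probe was called by limma in either comparison (0.0508% and 0.00442% of all probes were), with 1 and 3 at an unadjusted p under 0.05 (6.95% and 5.6% of all probes). The brightest Ednrb probe was the 1 of 8 with every compound array below every wild-type array, as for 1.8% of all probes. All Ednrb probes therefore ran from wild-type through NdpKO;Ptch+/- to the single mutants, but no neighbours in that order differed at the adjusted threshold. The first principal component also set wild-type and most compound arrays against most single-mutant arrays, so that split was not particular to Ednrb.

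**Figure D2:**
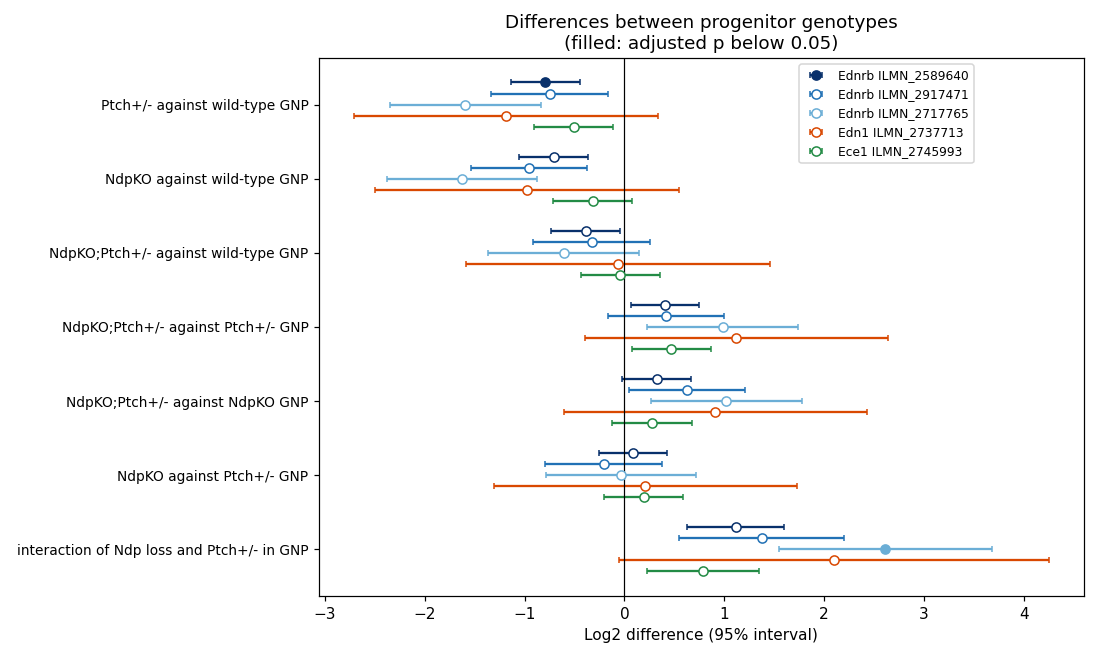
Log2 differences (horizontal axis, points) with their 95% intervals (bars) for the 5 endothelin probes above background in the 6 pairwise comparisons of GNP genotypes and in the interaction; filled points had an adjusted p below 0.05. The brightest Ednrb probe in Ptch+/- against wild-type and the dimmest in the interaction are the filled points, and Edn1 has the widest intervals.

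Edn1, the endothelial ligand, was at or near background on most arrays and reached a level of 5 on 6 of 18. The wild-type arrays read 7.95, 5.24, 4.59 and 4.52, the NdpKO;Ptch+/- arrays 4.41, 5.71, 5.10 and 6.81, the NdpKO arrays 4.18, 4.36, 4.21 and 5.65, and the Ptch+/- arrays 4.41, 4.24, 4.44 and 4.47. All Ptch+/- arrays were thus in the background range, and 1 array set most of the level of the wild-type and of the NdpKO group. The wild-type mean was at least 1.49-fold above the Ptch+/- level when that is set at 5, and the fitted difference was -1.19 ± 0.70 (adjusted p = 0.54). Without wild-type replicate 1 it shrank to -0.40, and the difference of NdpKO from wild-type shrank from -0.98 ± 0.70 to -0.19. The difference of compound mutants from Ptch+/- was 1.12 ± 0.70 (adjusted p = 0.71), with a 95% interval from -0.40 to 2.64. These arrays could not resolve a change of Edn1 of that size.

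Ece1, the converting enzyme, had a bright and a silent probe. The bright one (ILMN_2745993) read 8.97, 8.79, 8.26 and 8.73 in wild-type, 7.98, 8.24, 8.27 and 8.24 in Ptch+/-, 8.33, 8.18, 8.11 and 8.87 in NdpKO, and 8.40, 8.77, 8.51 and 8.92 in NdpKO;Ptch+/- GNPs. Every compound array was above every Ptch+/- array, and the other groups overlapped. Its differences were a fraction of a log2 unit: -0.51 ± 0.18 in Ptch+/- against wild-type (adjusted p = 0.23), -0.32 ± 0.18 in NdpKO against wild-type (adjusted p = 0.59), 0.47 ± 0.18 in compound mutants against Ptch+/- (adjusted p = 0.48) and an interaction of 0.78 ± 0.26 (adjusted p = 0.19). The other Ece1 probe (ILMN_1255063) stayed between 4.11 and 4.14 on all arrays, and the 2 probes of Edn3 between 4.10 and 4.12, so that Edn3 was not detected in GNPs or tumors and these 3 probes say nothing about their genes' changes.

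Some astroglial genes followed Ednrb closely across the arrays, and others less so. Among 9474 probes, the 5 genes whose levels followed the brightest Ednrb probe most closely over the 16 GNP arrays were Hopx, a homeodomain protein of astroglia (Pearson's r = 0.966), Pdlim4, a LIM protein of the actin cytoskeleton (0.961), Bag3, a co-chaperone (0.955), Ppp1r3c, which targets a phosphatase to glycogen (0.952), and Csrp1, a LIM protein (0.944). With each genotype's mean removed, r was still 0.845 to 0.912, so the likeness also held among arrays of 1 genotype. For the astroglial water channel Aqp4 r was 0.932, and 0.940 without the genotype means. It was 0.886 for Slc1a3 but 0.727 for Gfap, the astrocyte intermediate filament. The Gfap value lay below those of Ece1 (0.798) and of the endothelial genes Pecam1 (0.784) and Cldn5 (0.754). It lay above that of the endothelial gene Cdh5 (0.707). Without the genotype means, r for Gfap (0.803) lay above Ece1 (0.718), Cdh5 (0.698), Pecam1 (0.683) and Cldn5 (0.649), and Slc1a3 had 0.701. For the mural gene Rgs5 r was 0.498, and 0.259 without the genotype means.

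**Figure D3:**
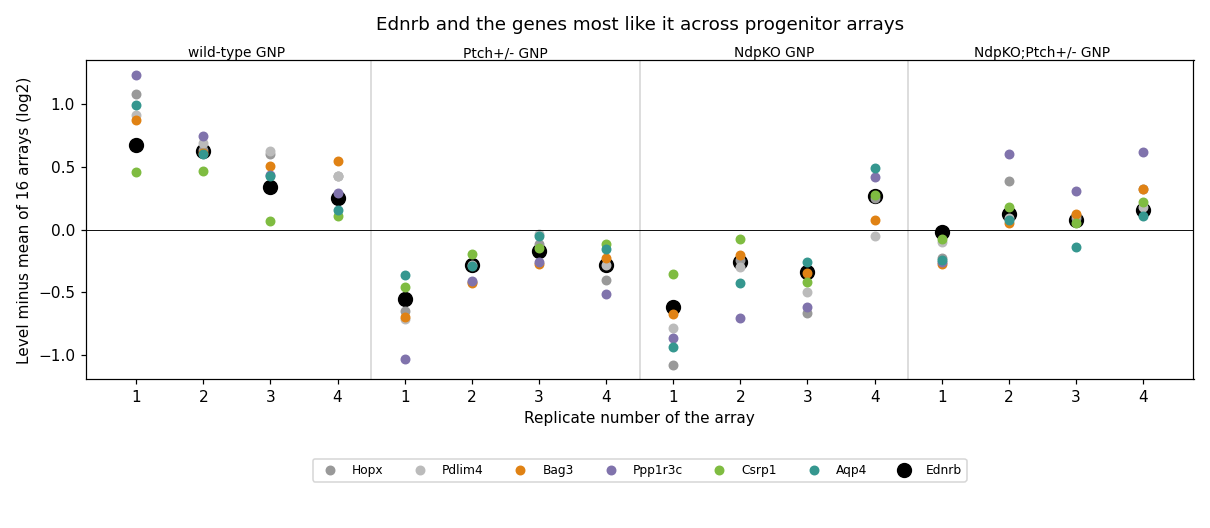
Level minus the mean of the 16 GNP arrays (log2, vertical axis) of Ednrb (large black points, brightest probe), its 5 most similar genes and Aqp4, for each array by genotype and replicate number (horizontal axis). The points are all above 0 in wild-type GNPs and are higher in NdpKO replicate 4 than in the other NdpKO arrays. Within 1 array they spread, as in wild-type replicate 1 from 0.46 (Csrp1) to 1.23 (Ppp1r3c).

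Edn1 followed another set. Its closest genes were C130074G19Rik (r = 0.958), Ptgis, which makes the vasodilator prostacyclin (0.919), Smagp, a cell adhesion protein (0.910), Slc2a1, the glucose transporter of brain endothelium (0.905), and Anxa3, an annexin (0.903), and the endothelial cadherin gene Cdh5 had r = 0.868. Ece1 was closest to Gpr137b-ps (0.955), Nedd1, a centrosomal protein (0.945), Nxpe4 (0.942), Pttg1ip (0.941) and Gata2, a transcription factor of blood and endothelial lineages (0.932). All these coefficients are over the same 16 arrays, are partly fixed by which genes were sought, and carry no test.

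Markers of several other cell types were also lower in the single mutants, and their part in the Ednrb differences was not tested. Of the 16 astrocyte and Bergmann glia markers, 12 had a mean level of at least 5, and 10 of these were lower in Ptch+/- and 11 lower in NdpKO than in wild-type GNPs, with medians over the whole list of -0.61 and -0.52 where the median of all probes was about 0. By limma, 11 of the 16 had an unadjusted p under 0.05 in Ptch+/- and 10 in NdpKO, where 13.2% and 10.9% of all probes did. Only Sox9, an astroglial transcription factor, was called in Ptch+/- (-0.55 ± 0.12, adjusted p = 0.0477) and only Gfap in NdpKO (-2.16 ± 0.41, adjusted p = 0.0499). Of all probes, 0.499% and 0.155% were called lower in these comparisons. Sox9 was also the 1 marker called in the interaction, at 0.85 ± 0.17 (adjusted p = 0.0481), where 0.221% of all probes were called higher. The summed intensity of the list was 18072 to 22833 in wild-type, 11051 to 13565 in Ptch+/-, 10514 to 16933 in NdpKO and 15033 to 19032 in NdpKO;Ptch+/- GNPs, highest in wild-type and next in the compound mutants, as for Ednrb. Gfap did not share that order, with a mean of 7.90 in the compound mutants and 8.61 in Ptch+/- GNPs. None of these markers' defining genes (Gfap, Aqp4, Slc1a3) was at background in GNPs.

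The 19 measured endothelial markers moved in the same direction, with fewer at an unadjusted p under 0.05. All 14 with a mean of at least 5 were lower in Ptch+/- and in NdpKO than in wild-type GNPs (medians over the list -0.71 and -0.76), 0 were called by limma (3 and 6 had an unadjusted p under 0.05, where 13.2% and 10.9% of all probes did), and the summed intensity was 9031 to 18796 in wild-type, 5608 to 8382 in Ptch+/-, 5410 to 10164 in NdpKO and 6107 to 13205 in compound mutants. Of 13 mural markers 4 had a mean of at least 5, and all 4 were lower in both single mutants, none of them called (1 and 2 of the 13 had an unadjusted p under 0.05). Among them Rgs5, a pericyte gene, differed by -0.25 ± 0.21 in Ptch+/- (adjusted p = 0.72) and -0.47 ± 0.21 in NdpKO (adjusted p = 0.45). The defining mural gene Pdgfrb was at background on every array, and the summed mural intensity overlapped between groups (1189 to 2056 in wild-type, 1195 to 1458 in Ptch+/-, 962 to 1518 in NdpKO and 1088 to 1752 in compound mutants). Of 7 Purkinje cell and interneuron markers 4 had a mean of at least 5, again all lower in both single mutants and none called (1 and 0 of the 7 had an unadjusted p under 0.05), and their summed intensity overlapped too (1247 to 2796, 877 to 2143, 896 to 2059 and 951 to 3167 in the same order of groups).

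Some granule lineage markers moved the other way. Of 13 measured, 3 were called in Ptch+/- against wild-type, all higher, where 0.592% of all probes were called higher. They were Zic2 (0.76 ± 0.10, adjusted p = 0.0071), Zic4 (0.54 ± 0.10, adjusted p = 0.0247) and the cyclin gene Ccnd2 (0.52 ± 0.08, adjusted p = 0.014). The interaction was called lower for the same 3, where 0.274% of all probes were. The summed list of granule lineage markers was 18510 to 19331 in wild-type and 22726 to 24502 in Ptch+/- GNPs. Of 13 microglia and leukocyte markers 4 had a mean of at least 5, all lower in both single mutants. Fcrls was called lower in NdpKO (-2.06 ± 0.38, adjusted p = 0.0469), where 0.155% of all probes were. Of 10 oligodendrocyte lineage markers Pdgfra was called lower in Ptch+/- (-0.84 ± 0.17, adjusted p = 0.0403), where 0.499% of all probes were.

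No other gene of the endothelin pathway lists passed limma's adjusted threshold between GNP genotypes; over the 7 tests the number with an unadjusted p under 0.05 reached at most 2 of 8 ligand and peptidase genes (NdpKO against Ptch+/-, where 5.09% of all probes did), 5 of 19 signalling genes and 3 of 12 vasomotor genes (the interaction, 13.3%) and 2 of 6 regulators (compound mutants against Ptch+/-, 8.67%, and against wild-type, 6.95%). All 8 other ligand and peptidase genes were measured, 3 with a mean of at least 5, and none was called; Edn2 was at background, and Ece2, a second converting enzyme, differed most, with 1.17 ± 0.27 in Ptch+/- against wild-type (adjusted p = 0.0606) at its brightest probe, with every wild-type array near background. Of 22 genes of receptor signalling (G protein subunits, phospholipases, inositol trisphosphate receptors, arrestins and RGS proteins) 19 were measured and none was called. Rgs3, which shortens G protein signals, differed most in Ptch+/- against wild-type (-1.29 ± 0.34, adjusted p = 0.0937). Of 14 vasomotor genes 12 were measured and none was called, and the 4 above background were all lower in both single mutants than in wild-type (for Ptgis -0.92 ± 0.48 in Ptch+/-, adjusted p = 0.46, and -0.86 ± 0.48 in NdpKO, adjusted p = 0.57). Of 7 neural crest and glial regulators that act on or with Ednrb 6 were measured and none was called, Sox10 included (0.23 ± 0.22 in Ptch+/- against wild-type, adjusted p = 0.76).

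Both tumors had less Ednrb signal than any GNP array, at all 3 probes. GNPs were enriched cells, while the study's methods describe the tumors as dissected tissue. Tumor status therefore cannot be told apart from preparation here, nor from age if the tumors came from symptomatic mice. The Ptch+/- MB read 10.06, 6.56 and 4.13 for the brightest, middle and dimmest probe, and the NdpKO;Ptch+/- MB 8.67, 4.54 and 4.10. Against GNPs of the same genotypes (8 arrays, genotype as a covariate) the differences were -1.72 ± 0.34 (3.28-fold, adjusted p = 0.012), -2.34 ± 0.46 (adjusted p = 0.0123) and -1.40 ± 0.34 (adjusted p = 0.0303). Since the middle probe was near background in the NdpKO;Ptch+/- MB and the dimmest in both tumors, the last 2 sizes are bounds only, at least 4.31-fold and at least 1.43-fold with those tumors set at 5. The calls at the brightest and the middle probe were kept in all 15 other fits, that at the dimmest in 8 of 15. It was lost with array weights (adjusted p = 0.11) and without Ptch+/- replicate 4 or NdpKO;Ptch+/- replicate 2, 3 or 4 (adjusted p = 0.0539 to 0.0574), and without the NdpKO;Ptch+/- MB, where the difference was -0.90 (adjusted p = 0.31). Tumors and progenitors differed widely, with 6.06% of all probes called lower and 11.8% below all 8 GNP arrays in both tumors, so that 3 of 8 endothelin probes called lower, and 4 of 8 below all 8 GNP arrays, are to be read against a large background. A further probe, the silent one of Ece1, was called higher by 0.017 within the background range (8.61% of all probes were called higher), a difference with no meaning as a level.

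The tumor of the compound genotype lay further from its GNPs. Relative to the matched GNP mean, Ednrb at its brightest probe was at -2.62 in the NdpKO;Ptch+/- MB and at -0.81 in the Ptch+/- MB. At the middle probe it was at -1.12 in the Ptch+/- MB, and the NdpKO;Ptch+/- MB, near background there, was at least 8.56-fold below its GNPs. Without the NdpKO;Ptch+/- MB the fitted differences at these probes were -0.81 (adjusted p = 0.0081) and -1.12 (adjusted p = 0.0156), and without the Ptch+/- MB that of the brightest probe was -2.62. Between the tumors Ednrb was 2.64-fold lower in the NdpKO;Ptch+/- MB at the brightest probe and at least 2.95-fold lower at the middle one, sizes beyond a log2 difference of 1 that 1.79% of all probes reached in that direction. There was 1 tumor per genotype, so these are values of 2 tumors and no test of genotype was possible.

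**Figure D4:**
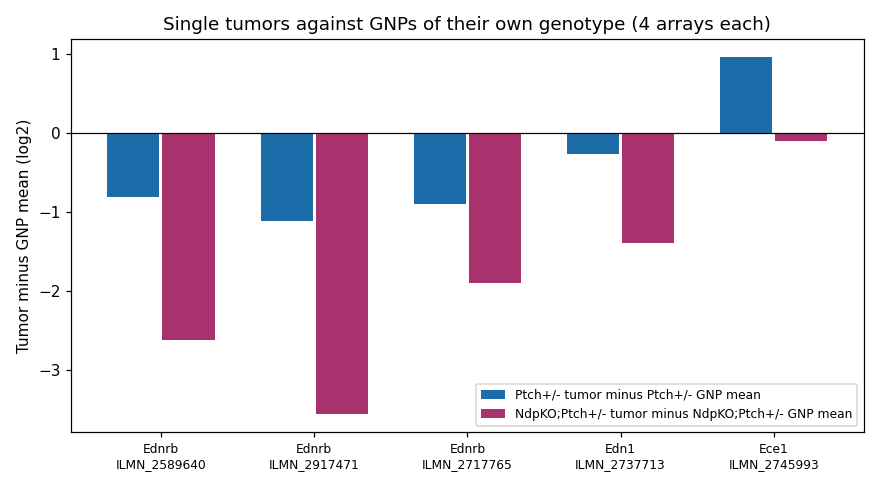
Difference of each tumor from the mean of the 4 GNP arrays of its own genotype (log2, vertical axis, bars from 0; 1 tumor per bar, no error) for the 5 endothelin probes above background in GNPs. Ednrb bars point down at every probe and are longer in the NdpKO;Ptch+/- tumor; both tumors at ILMN_2717765 and for Edn1, and the NdpKO;Ptch+/- tumor at ILMN_2917471, were near background (below 5), so those bars show no exact size.

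Ece1 and Edn1 differed from Ednrb in the tumors. Ece1 read 9.15 in the Ptch+/- MB, above every GNP array, and 8.54 in the NdpKO;Ptch+/- MB, within the GNP range (0.43 ± 0.24 over both, adjusted p = 0.33; 0.96 without the NdpKO;Ptch+/- MB, adjusted p = 0.0234, and -0.11 without the Ptch+/- MB). Edn1 was at background in both tumors (4.12 and 4.12), and its mean over the 8 matched GNP arrays was itself below 5 (4.95), so no size is given (adjusted p = 0.43).

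The marker lists moved in another way in tumors than between GNP genotypes. Of all probes, 8.61% were called higher in tumors and 6.06% lower. Of 16 astroglial markers 6 were called higher and 3 lower. Among those higher, Gfap rose by 1.84 ± 0.31, Sox9 by 1.09 ± 0.20 and Apoe, the astroglial lipid carrier, by 2.44 ± 0.34. Aqp4 (-0.43 ± 0.11), the gap junction gene Gja1 (-1.94 ± 0.15) and the Bergmann glia gene Gdf10 (-2.96 ± 0.32) fell. The summed astroglial intensity was 32877 in the Ptch+/- MB and 18441 in the NdpKO;Ptch+/- MB, against 11051 to 19032 in GNPs of those genotypes. Slc1a3 and Sox9, at 14.00 and 13.14, were the largest terms of the sum in the Ptch+/- MB. Endothelial markers had 6 of 19 called lower and summed to 2476 and 2638, below every GNP array, with Cldn5 at 8.64 and 8.18. Microglia and leukocyte markers had 9 of 13 called higher. Of 13 mural markers 2 were called higher and 1 lower. All 4 mural markers with a mean of at least 5 had negative estimates (median -1.52), so the 2 called higher had means below 5. Of 10 oligodendrocyte lineage markers 2 were called higher and 6 lower. Of 13 granule lineage markers 3 were called higher and 1 lower, and of 7 Purkinje cell and interneuron markers 2 were called lower. The part of any of these cell types in the tumor values was not tested.

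Of the receptor signalling genes, 3 rose and 3 fell in tumors. The inhibitory G protein gene Gnai2 rose by 0.96 ± 0.06, the phospholipase gene Plcb3 by 1.48 ± 0.37 and the arrestin gene Arrb2 by 0.45 ± 0.07, while Gnai1 (-1.58 ± 0.20), the protein kinase C gene Prkca (-1.35 ± 0.18) and Rgs3 fell. Rgs3 was at background in both tumors, at least 2.60-fold below the 8 GNP arrays (fitted -2.25 ± 0.38). Of the vasomotor genes Ptgis, also at background in both tumors (at least 2.19-fold, fitted -1.85 ± 0.44), and Ramp2, which pairs with the adrenomedullin receptor (-0.77 ± 0.21), fell and none rose. Of the regulators Zeb2 rose by 1.50 ± 0.14 and Kit (-1.80 ± 0.14), the receptor of melanocyte and interneuron lineages, fell. These calls stand beside 14.7% of all probes called in either direction.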

How the data were processed

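GNPs and MBs were profiled on MouseWG-6 v2 arrays. The deposited values are log2 intensities: per the study's methods, the authors ran the neqc function of limma, which corrects background on control probes and normalizes by quantiles. That forces equal distributions on all arrays and compresses differences near background. Probes were named from the platform annotation (34885 with 1 symbol, 18 with several, 10378 with none; 34807 matched the RefSeq table by Entrez identifier).

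Here limma 3.58.1 (R 4.3.3) fitted a mean for each GNP genotype over 16 arrays (lmFit, contrasts.fit, eBayes, two-sided), with Benjamini-Hochberg adjustment over all 45281 probes and a threshold of 0.05. For the tumors, tissue was tested against the 8 genotype-matched progenitor arrays with genotype as a covariate. No probe was filtered. The scripts were tested on simulated data. The number of arrays limits the precision. Every member probe is shown. Of other lists, each gene is represented by its brightest probe. Genes are named where called or, otherwise, among the 2 with the largest differences, except Sox10, Edn2 and Atoh1, named after their values were seen. Of the cell type markers called in tumors, only some are named. Members and lists were chosen with earlier results of these data known. Likeness is Pearson's r over 16 arrays among probes with a mean of at least 5. Alternatives were the arrays in the fit, a variance trend, array weights, a filter on dim probes, cyclic loess, a replicate block, other placement of the mislabelled array and leaving out arrays. Same-numbered arrays did not deviate together (median r = -0.07 over 24 pairs, 3 over 0.1), so no pairing by number was seen and the main fit used none. The replicate block, fitted as an alternative only, leaves fewer degrees of freedom for the spread.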

Additional observations from a re-analysis of the deposited data

Results flagged for a closer look

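In 19 groups of 4 arrays, 2 arrays lay far from the others of their group, where chance marks about 5% of groups. Edn1 was highest in NdpKO replicate 4, at 5.65, with a gap of 0.876 of the group's range, and this array also stood apart on the first principal component. Ece1 was lowest in Ptch+/- replicate 1, at 7.98, with a gap of 0.888 of the range.

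By the test over all arrays, the effect of Norrin loss on Ednrb (ILMN_2717765) differed between the Ptch+/- and the wild-type background, with an interaction of 2.61 (limma, adjusted p = 0.0473). The call was kept in 2 of 16 fits that left out 1 array, and was lost with the replicate block (adjusted p = 0.0808) and with the mislabelled array counted as NdpKO (adjusted p = 0.19). The estimates were -1.63 on the wild-type and 0.98 on the Ptch+/- background.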

How the results depend on the processing

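The counts of endothelin probes called depended on the processing in 4 comparisons. For Ptch+/- against wild-type (1 called) the count was 2 with a variance trend, array weights, dim probes left out or cyclic loess, 0 with a replicate block (Ednrb adjusted p = 0.0738) or with the mislabelled array counted as NdpKO, and 0 to 1 when arrays were left out in turn. For the interaction (1 called) it was 2 with the trend or array weights, 3 with dim probes left out or without NdpKO replicate 4 and NdpKO;Ptch+/- replicate 1 (chosen after seeing the data), 0 with the block or with the mislabelled array as NdpKO, and 0 to 3 on leaving out single arrays. For NdpKO against wild-type (0 called) it was 3 with dim probes left out, 2 without the 2 arrays, and 0 to 2 on leaving out single arrays. For MB against GNPs (4 called) it was 2 with array weights, 3 with dim probes left out, where the silent Ece1 probe was not tested, and 3 to 4 on leaving out single arrays; the call at ILMN_2717765 was kept in 8 of 15 fits. The other comparisons had 0 in every fit. Calls over all probes moved too. With dim probes left out, 1393 of 10804 were called for Ptch+/- against wild-type (494 of 45281 in the main fit). That filter called 1396 for the interaction (224 in the main fit) and 547 for NdpKO against wild-type (139). Without the 2 arrays the last 2 comparisons had 2577 and 1070 calls of 45281. Array weights gave 825 calls for Ptch+/- against wild-type and 619 for the interaction. Fewer probes tested is part of the filter's effect, and the other causes were not tested.

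Small differences changed sign. Edn1 in NdpKO;Ptch+/- against wild-type was 0.07 with array weights and 0.30 without the 2 arrays (-0.50 to 0.72 on leaving out single arrays), and Ece1 there was 0.044 without the 2 arrays (-0.18 to 0.053). In NdpKO against Ptch+/-, without the 2 arrays, Ednrb at ILMN_2589640 was -0.083 (-0.083 to 0.21 on leaving out single arrays) and Edn1 -0.14 (-0.14 to 0.35). There ILMN_2717765 was 0.21 with the mislabelled array as NdpKO (-0.30 to 0.18) and ILMN_2917471 ran from -0.38 to 0.072. Ece1 in MB against GNPs ran from -0.11 to 0.96. Levels near background limit Edn1 and ILMN_2717765.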
